A study of Mus musculus with 13 samples.

Results

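Elastic fibres give stretch and recoil to a tissue. They consist of a core of cross-linked elastin laid on a scaffold of fibrillin microfibrils, and fibulins, microfibril-associated glycoproteins and EMILINs bind at or near the boundary between core and scaffold. Fibrillin microfibrils also hold latent TGF-beta in the matrix, and in adipose depots such fibres are found around vessels and in septa, where fibroblasts and smooth muscle cells are their usual makers. The genes described here are 10 genes of this structure, chosen by name out of 42416 Ensembl identifiers, namely Eln (elastin), Fbn1 and Fbn2 (fibrillins), Fbln1, Fbln2 and Fbln5 (fibulins), Mfap2, Mfap4 and Mfap5 (microfibril-associated proteins) and Emilin1. Each symbol matched 1 identifier, and 7 of the 10 passed the filter on low counts, more than 1 count per M (CPM) in at least 5 libraries.

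The transcripts were measured in whole iBAT, the brown fat pad between the shoulder blades, from 13 mice with a library each. All were housed at room temperature and fed HFD, a diet rich in fat. The 8 mice labelled iFAXLKO carried loxP-flanked Axl and Cre, and the 5 labelled WT carried the same floxed alleles without Cre. The controls are thus floxed too, and both groups received tamoxifen in courses repeated every 3 weeks. Per the methods of the study, both were homozygous for the floxed allele, the mice were female, and Cre was a heterozygous Adipoq-CreERT2 transgene from a bacterial artificial chromosome whose promoter is active in adipocytes. The labels give no age. The comparison asks how brown fat on HFD differs when Cre directed at Axl is switched on in adipocytes. The study reports that iFAXLKO mice gained less weight and had a lighter iBAT. Effects within brown fat and those of body weight therefore cannot be told apart here. Only the mice labelled iFAXLKO carried the Cre transgene, so its effects and those of Axl loss cannot be told apart either.

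Total counts were between 22.44 and 32.6 M per library. Transcripts of Axl, the targeted gene, were no lower in iFAXLKO-labelled libraries. They were at between 26.5 and 43.9 CPM in those libraries and between 23.5 and 33.8 CPM in the WT libraries. The edgeR log2 fold change was 0.25 (SE 0.13, adjusted p 0.699), so directions rest on the labels. These counts are of whole tissue and include cells other than adipocytes. For AXL protein, the study presents a western blot of the mature fraction of inguinal white fat, a different depot. The brown adipocyte transcript Ucp1 averaged 5600 ± 1120 CPM in the libraries labelled iFAXLKO and 6370 ± 914 CPM in the WT libraries (SD). Skeletal muscle markers summed to between 2.23 and 3700 CPM, a wide range within both groups.

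The upstream sequences of 3 members are shown because their windows of 250 bases before a RefSeq start site (GRCm38.p6) hold no more than 6 bases of annotated exon. Capitals mark matches to the motifs searched on both strands. The GC box was spelled GGGCGG. The TATA box was spelled TATAAA. The AP-1 site was spelled TGANTCA. The SMAD element was spelled CAGACA. The TEAD site was spelled CATTCC. The E-box was spelled CACGTG, and no match in these windows overlaps another. The windows read from 5′ to 3′ on the strand of the gene, Fbln1 on the plus strand of chr15:85205699-85205948, Fbln5 on the minus strand of chr12:101819120-101819369 and Mfap2 on the plus strand of chr4:141010174-141010423.
Fbln1: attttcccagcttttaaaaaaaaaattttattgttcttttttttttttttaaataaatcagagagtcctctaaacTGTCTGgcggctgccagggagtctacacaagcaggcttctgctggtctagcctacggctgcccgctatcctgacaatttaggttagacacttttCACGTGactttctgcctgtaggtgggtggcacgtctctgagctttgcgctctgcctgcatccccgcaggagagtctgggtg
Fbln5: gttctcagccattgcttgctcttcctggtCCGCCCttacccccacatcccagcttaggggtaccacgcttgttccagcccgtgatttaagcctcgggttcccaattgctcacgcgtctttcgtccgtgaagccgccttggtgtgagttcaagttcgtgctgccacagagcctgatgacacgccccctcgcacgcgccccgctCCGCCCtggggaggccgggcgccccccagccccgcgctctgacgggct
Mfap2: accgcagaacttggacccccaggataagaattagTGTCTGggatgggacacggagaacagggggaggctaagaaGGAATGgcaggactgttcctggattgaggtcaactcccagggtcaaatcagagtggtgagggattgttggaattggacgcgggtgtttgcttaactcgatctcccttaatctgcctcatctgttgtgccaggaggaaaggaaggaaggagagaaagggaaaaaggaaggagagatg

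The 3 windows differ in base composition. The Fbln5 window is 65.2% G and C with 21 CpG and 2 GC boxes, the Fbln1 window 46.4% with 7 CpG, 1 SMAD element and 1 E-box, and the Mfap2 window 51.2% with 5 CpG, 1 SMAD element and 1 TEAD site. Over the 32536 windows of this length in the RefSeq table the median was 52.4% G and C and 6 CpG, and 33% held a GC box, 17% a SMAD element, 12.6% a TEAD site, 6.04% an E-box, 12.3% a TATA box and 6.73% an AP-1 site. In all, 6 of the 10 genes had a window. Those of Fbn1, Fbln2 and Emilin1 lie wholly inside exons annotated in GENCODE and are not printed.

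Between the groups, all 7 elastic fibre genes tested had a higher mean in the libraries labelled iFAXLKO, and none passed an adjusted p of 0.05. Log2 fold changes ran from 0.12 (Fbln5) to 0.77 (Mfap5) with a median of 0.39, where the median over all genes tested was -0.012 and 46.4% of them had a positive value. By edgeR's quasi-likelihood test 0 of the 7 genes had an adjusted p under 0.05, and the lowest adjusted p was 0.49. DESeq2 and limma-voom also gave 0, and among all 13360 genes tested 0.127% passed this limit in edgeR and 0.501% in DESeq2. At an unadjusted p under 0.05, 4 of the 7 were higher and 0 lower, namely Mfap5, Fbln2, Fbn1 and Emilin1, against a background of 3.84% of all genes higher and 3.54% lower. The 10 genes were chosen with earlier results of these data known, so these shares describe the list and do not test it. For each of the 10 genes the groups overlapped in CPM, where 0.24% of all genes were higher in the libraries labelled iFAXLKO with no overlap and 0.434% differed with no overlap in either direction. For 2 of the 7 genes, Fbn1 and Mfap5, each of the 8 libraries labelled iFAXLKO was above the mean of WT, as for 3.2% of all genes.

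**Figure D1:**
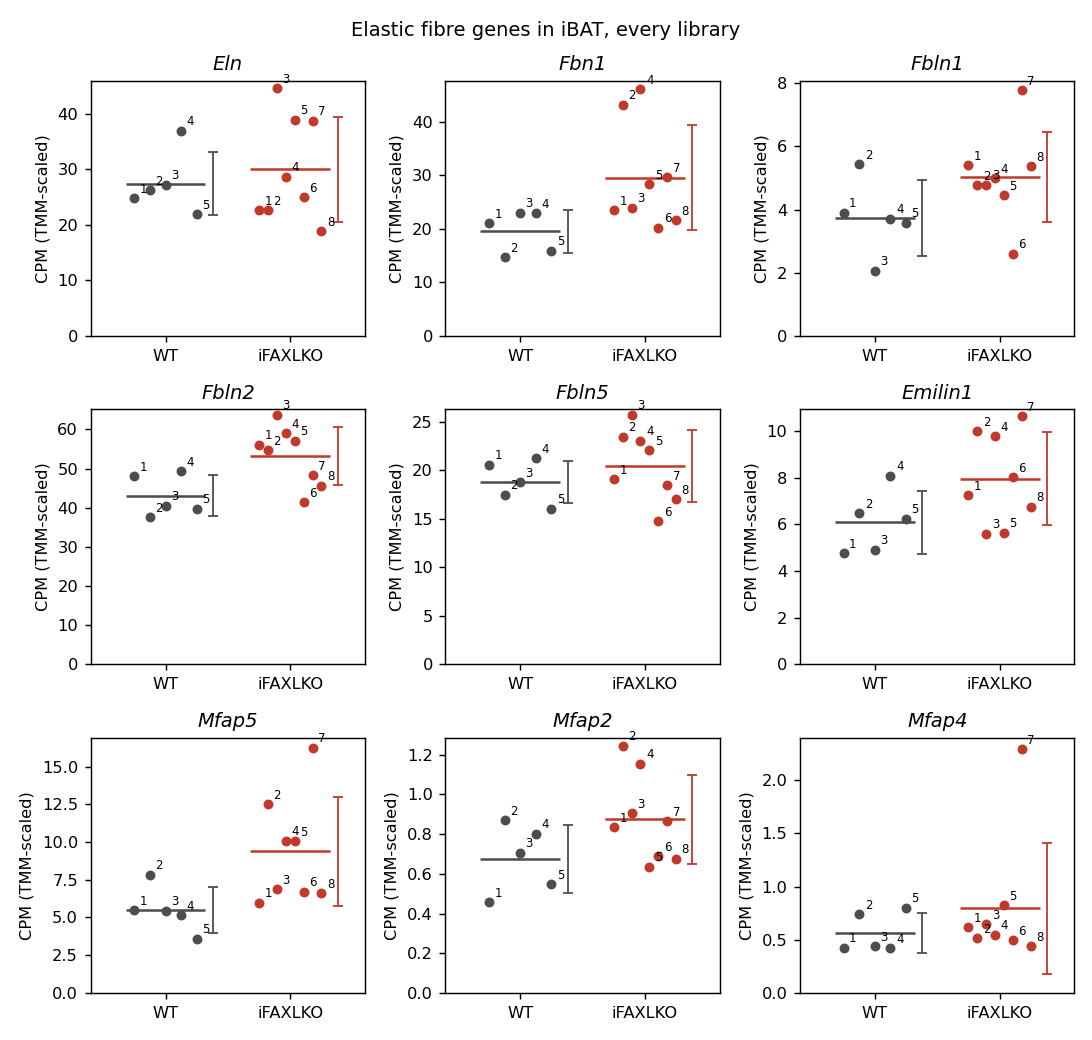
CPM of 9 elastic fibre genes in every library (points, numbered by replicate), with the group mean (horizontal line) and SD (bar beside the points), for 5 WT and 8 iFAXLKO libraries; each vertical axis starts at 0. All panels overlap between the groups, and a single library, iFAXLKO replicate 7 at 2.29 CPM, stands apart for Mfap4.

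Elastin is secreted as soluble tropoelastin and cross-linked outside the cell by lysyl oxidases. Eln (ENSMUSG00000029675, chromosome 5, 134702593 to 134747323, minus strand, GRCm38) was at 24.8, 26.2, 27.2, 36.9 and 22 CPM in WT replicates 1 to 5, and ran from 18.8 to 44.6 CPM with a median of 26.8 CPM in the 8 libraries labelled iFAXLKO. Both the highest library (iFAXLKO replicate 3) and the lowest (iFAXLKO replicate 8) were of one group, and only 3 of 8 lay above the highest WT library. The log2 fold change was 0.13 (95% interval -0.31 to 0.56, adjusted p 0.945). It was 0.26 without WT replicate 4, 0.025 without iFAXLKO replicate 3, and turned to -0.04 under limma-voom with sample quality weights. An antisense gene, Gm30003, overlaps Eln and held at most 4 reads in a library.

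Fibrillin-1 is the backbone of the microfibril, and its loss of function underlies Marfan syndrome. Fbn1 (ENSMUSG00000027204, chromosome 2, 125300594 to 125507993, minus strand) was at 21.1, 14.7, 23.1, 22.9 and 15.9 CPM in the WT libraries, against a range of 20.2 to 46.1 CPM and a median of 26.2 CPM. The groups overlapped, with 6 of 8 libraries labelled iFAXLKO above the highest WT library, led by replicates 4 and 2 at 46.1 and 43.3 CPM. Mean levels were 29.6 ± 9.86 CPM (SD, n = 8) and 19.5 ± 3.95 CPM (SD, n = 5), 1.51-fold (log2 fold change 0.6, SE 0.21). The edgeR p was 0.0133, the adjusted p 0.517 and the exact permutation p 0.0381. Leaving out 1 library gave between 0.48 and 0.68, each at an unadjusted p under 0.05. An opposite-strand gene, Gm9913, overlaps exons of Fbn1 and held at most 4 reads in a library.

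Fibrillin-2 is made mainly during development. Fbn2 (ENSMUSG00000024598) had between 0 and 3 reads in each of the 13 libraries except iFAXLKO replicate 2, which had 5, so it was at or near the limit of detection. A count of 0 allows up to 3 counts, between 0.092 and 0.134 CPM in these libraries, counting error only. The fibrillin transcripts of this tissue were thus almost wholly from Fbn1 in both groups.

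**Figure D2:**
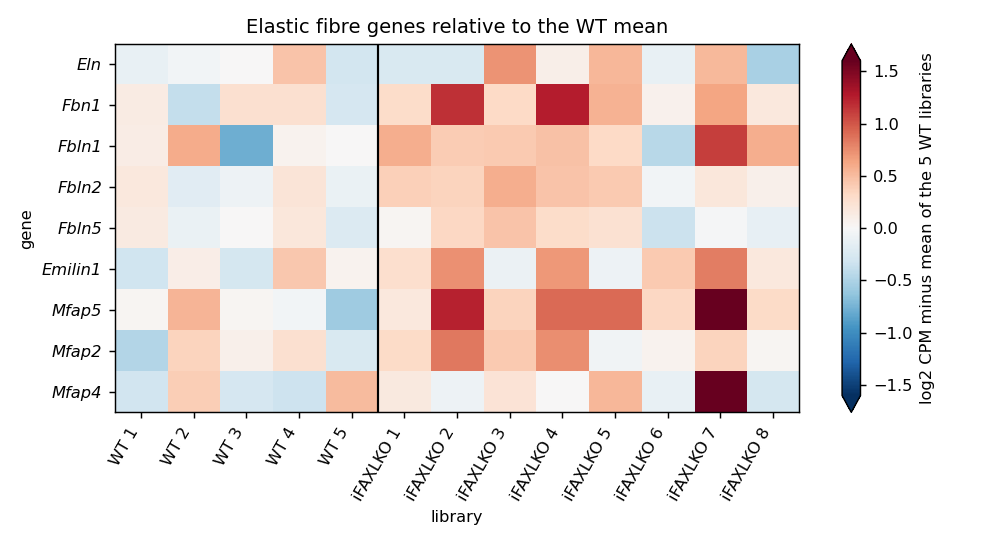
Log2 CPM of 9 elastic fibre genes (rows) in each library (columns) minus the mean of the 5 WT libraries; red is higher, blue lower, and the scale stops at 1.6 on either side. The libraries labelled iFAXLKO replicates 2, 4 and 7 carry most of the strong red, and replicates 6 and 8 are close to the WT libraries.

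The fibulins link elastin, fibrillin and basement membranes. Fbln2 (ENSMUSG00000064080, chromosome 6, 91212455 to 91272540, plus strand), whose product is also found in vessel walls, was the most abundant member. Its WT levels were 48, 37.6, 40.5, 49.4 and 39.8 CPM, and the libraries labelled iFAXLKO ran from 41.5 to 63.8 CPM with a median of 55.4 CPM. Of these 8, 7 lay above the WT mean and 5 above the highest WT library. The means of 53.3 ± 7.47 CPM (SD, n = 8) and 43.1 ± 5.25 CPM (SD, n = 5) give 1.24-fold. The log2 fold change was 0.31 (SE 0.11, 95% interval 0.08 to 0.53). The p was 0.0114 in edgeR, 0.512 once adjusted and 0.0264 in the exact permutation test. Its highest library was 1.69 times its lowest, the smallest such ratio of the 9 detected members.

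Fibulin-5 binds tropoelastin and integrins and is needed to assemble elastic fibres. Fbln5 (ENSMUSG00000021186, chromosome 12, 101746565 to 101819055, minus strand) was at 20.6, 17.5, 18.8, 21.2 and 16.1 CPM in WT and between 14.7 and 25.7 CPM, median 20.6 CPM, in the libraries labelled iFAXLKO. The latter reach beyond the WT range at both ends. Its log2 fold change of 0.12 (95% interval -0.15 to 0.38, adjusted p 0.897) was the smallest of the 7. Fbln1 (ENSMUSG00000006369, chromosome 15, 85205949 to 85286535, plus strand), which encodes fibulin-1 of elastic fibres and basement membranes, was at 3.9, 5.43, 2.06, 3.71 and 3.58 CPM in WT and between 2.6 and 7.78 CPM, median 4.89 CPM, in the other group. Here 7 of 8 libraries lay above the WT mean but only 1, replicate 7, above the highest WT library. The difference was 0.43 on the log2 scale (SE 0.23, adjusted p 0.717), and leaving out WT replicates 2 or 3 moved it to 0.6 or 0.29.

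Among the microfibril-associated proteins, MAGP-2, the product of Mfap5, binds fibrillins. Mfap5 (ENSMUSG00000030116, chromosome 6, 122505845 to 122529290, plus strand) had the largest log2 fold change of the 7 genes tested. It was at 5.47, 7.82, 5.44, 5.16 and 3.58 CPM in the WT libraries and ran from 5.98 to 16.3 CPM with a median of 8.46 CPM in those labelled iFAXLKO. Of these 8, 4 lay above the highest WT library, WT replicate 2, while 4 of the 5 WT libraries lay below every library labelled iFAXLKO. The means of 9.39 ± 3.6 CPM (SD, n = 8) and 5.49 ± 1.52 CPM (SD, n = 5) correspond to a log2 fold change of 0.77 (SE 0.25, 1.71-fold). The edgeR p was 0.00783, the adjusted p 0.49 and the exact permutation p 0.021. The highest library, replicate 7, moved it most among the libraries left out downward, to 0.62, and WT replicate 2 upward, to 0.93.

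Mfap2 and Mfap4 were under the filter. Mfap2 (ENSMUSG00000060572, chromosome 4, 141010418 to 141015984, plus strand) encodes MAGP-1, a microfibril protein that binds fibrillin and TGF-beta family ligands. It had 13 to 38 reads per library, which is 0.458, 0.869, 0.706, 0.802 and 0.548 CPM in WT and 0.636 to 1.25 CPM, median 0.849 CPM, in the libraries labelled iFAXLKO. Of these, 6 of 8 lay above the WT mean, and the exact permutation p was 0.105. MFAP4 binds elastin, fibrillin and integrins. Mfap4 (ENSMUSG00000042436, chromosome 11, 61485431 to 61488900, plus strand) was at 0.426, 0.739, 0.441, 0.42 and 0.801 CPM in WT and at 0.438 to 2.29 CPM, median 0.582 CPM, in the other group. The top value is iFAXLKO replicate 7 alone, with 61 reads where the next library had 22. With it the mean of the libraries labelled iFAXLKO was 0.796 ± 0.616 CPM (SD, n = 8), and without it 0.583 ± 0.127 CPM (SD, n = 7), against 0.565 ± 0.188 CPM (SD, n = 5) in WT. An opposite-strand gene, Mapk7, overlaps its exons, and since the strand setting of the counting is not stated their shares of reads are uncertain. Mapk7 was at 9.73 CPM in replicate 7, inside the range of 8.02 to 10.1 CPM of its group.

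EMILIN-1 sits at the boundary of elastin and microfibrils and restrains processing of pro-TGF-beta. Emilin1 (ENSMUSG00000029163, chromosome 5, 30913402 to 30921277, plus strand) was at 4.78, 6.48, 4.91, 8.1 and 6.24 CPM in WT and between 5.61 and 10.6 CPM, median 7.64 CPM, in the libraries labelled iFAXLKO. Replicates 7, 2 and 4 were highest, and WT replicate 4 lay above 5 of the 8. Its mean was 1.31-fold that of WT (0.39 in log2 units, SE 0.18, adjusted p 0.672), the edgeR p 0.049 and the exact permutation p 0.0909. It kept an unadjusted p under 0.05 in 4 of 13 fits that left out 1 library.

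Levels were compared between genes per kb of annotated exons, since a long transcript gathers more reads. On this scale, in the WT libraries Fbln2 came first at 6.76 ± 0.824 CPM per kb (SD, n = 5), followed by Eln at 3.39 ± 0.7, Fbln5 at 2.72 ± 0.31, Fbn1 at 1.61 ± 0.325, Mfap5 at 1.53 ± 0.422, Emilin1 at 1.24 ± 0.274, Fbln1 at 0.855 ± 0.274, Mfap2 at 0.559 ± 0.142 and Mfap4 at 0.294 ± 0.0979 CPM per kb. Fbln2 lay above Eln in 13 of 13 libraries, and Fbln5 above Fbn1 in 5 of 5 WT libraries but 6 of 8 labelled iFAXLKO. Apart from Fbln2 over Eln, Fbln5 over Fbn1 and Mfap4 over Fbn2, neighbours in this order overlapped in range among the WT libraries. Fbn1 and Mfap5 were the closest, with Fbn1 higher in 4 of 5 WT libraries and 4 of 8 labelled iFAXLKO, and in the latter group the mean of Mfap5, 2.62 ± 1 CPM per kb (SD, n = 8), was above that of Fbn1, 2.44 ± 0.813. As a share of the summed per-kb level of the 10 genes, Fbln2 took 35.7% ± 2.88 in WT and 35.2% ± 4.03 in the libraries labelled iFAXLKO, Eln 17.8% ± 1.91 and 15.3% ± 3.63, Fbln5 14.4% ± 0.801 and 12.4% ± 1.32, and Mfap5 8.08% ± 2.21 and 10.7% ± 2.93 (SD over 5 and 8 libraries). The share of Fbln5 was lower in the libraries labelled iFAXLKO with an exact permutation p of 0.00777, and the other 9 shares had exact permutation p-values from 0.114 (Mfap5) to 0.932 (Mfap4). These p-values are not adjusted for the 10 shares, which sum to the same total in each library and so are not independent.

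**Figure D3:**
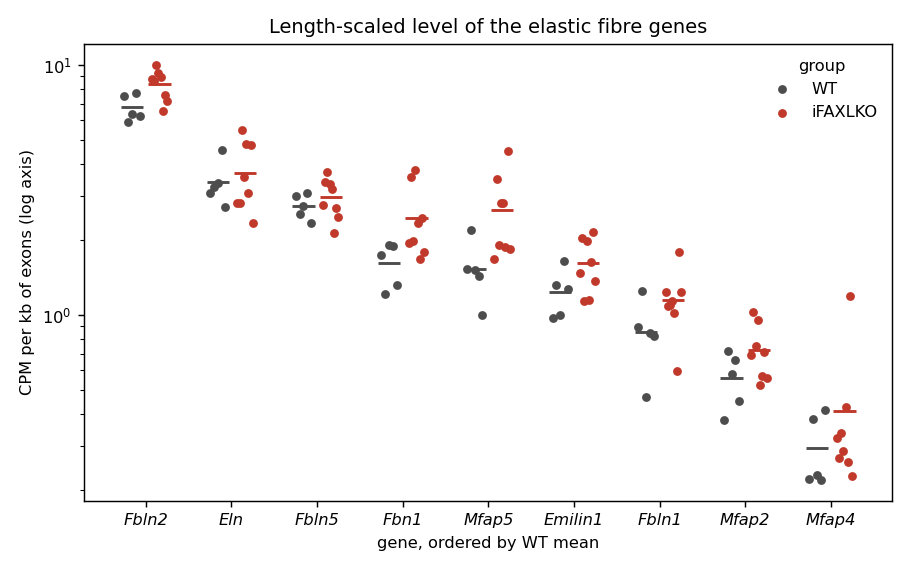
CPM per kb of exons (log axis) of 9 elastic fibre genes in 5 WT and 8 iFAXLKO libraries (points) with group means (lines), ordered by the WT mean; Fbn2, listed at 0 in 3 libraries, is left out. Fbln2 is highest in every library, and the lowest gene, Mfap4, has a WT mean of 0.294 CPM per kb.

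The members did not vary as 1 block across mice. With group means subtracted, 27 of the 36 pairs of the 9 detected members had a positive correlation of log2 CPM over the 13 libraries, with a median r of 0.3 and a range from -0.18 (Fbln2 with Mfap4) to 0.92 (Fbln2 with Fbln5). Next came Fbn1 with Fbln5 (0.65), Mfap2 with Emilin1 (0.61) and Fbln1 with Mfap4 (0.56), given as a description over libraries that share their scaling. Eln, Fbln2 and Fbln5 were highest in iFAXLKO replicate 3. Fbln1, Mfap4, Mfap5 and Emilin1 were highest in replicate 7, Mfap2 in replicate 2 and Fbn1 in replicate 4. At the other end, WT replicate 5 was among the 3 lowest libraries for 7 of the 9 genes.

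The genes most like the members, by the correlation of their log2 CPM with the mean of the 7 tested members over the 13 libraries with group means subtracted, were Ecm1 (r 0.95), Lyl1 (0.94), F13a1 (0.93), Ptpro (0.9) and Csf1r (0.89), picked as the top 5 of all genes tested. Ecm1 encodes a secreted matrix protein, F13a1 the A chain of coagulation factor XIII and Csf1r the receptor of macrophage colony-stimulating factor. Their log2 fold changes between the groups were not past the limit, with adjusted p-values from 0.507 (Csf1r) to 0.709 (Ecm1).

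Markers of other cell types were examined beside these genes, in lists chosen with earlier results of these data known. Over all genes tested, 3.84% were higher and 3.54% lower at an unadjusted p under 0.05. The 10 fibroblast markers all had positive log2 fold changes, from 0.16 (Ly6a) to 0.72 (Lum), with 8 of 10 at an unadjusted p under 0.05 and 0 past the adjusted limit (lowest adjusted p 0.122). They summed to between 319 and 503 CPM in the libraries labelled iFAXLKO and between 233 and 335 CPM in WT, none of the 10 at 0. The 4 macrophage markers, Adgre1, Cd68, Csf1r and Mrc1, had log2 fold changes from 0.34 to 0.43 with all 4 at an unadjusted p under 0.05, and summed to 38.3 to 66.8 CPM against 33.3 to 49.2 CPM. The 4 smooth muscle markers tested had values from 0.17 to 0.3 and 0 at an unadjusted p under 0.05, with sums of 73.2 to 134 CPM against 62.4 to 104 CPM. The 5 endothelial markers ranged from -0.12 (Kdr) to 0.22 (Tek), with sums of 606 to 962 CPM against 500 to 772 CPM. The tendon markers summed to no more than 3.52 CPM. Of 5 mesothelial markers Wt1 was at 0 reads in all libraries, and the 2 tested, Krt19 and Lrrn4, had 0.84 (adjusted p 0.91) and 0.26 (adjusted p 0.88). The sums of the mesothelial markers were 2.87 to 13 CPM against 3.4 to 7.69 CPM. The 7 brown adipocyte markers all had negative values, from -0.69 (Elovl3) to -0.0045 (Fabp4), with 1 at an unadjusted p under 0.05, and summed to 14800 to 19500 CPM against 16700 to 24900 CPM. Of the lists, macrophage markers had the highest median correlation with the mean of the members, 0.81, where the median over all genes tested was -0.003. Mesothelial markers had 0.63 (2 tested), fibroblast 0.62, smooth muscle 0.54, endothelial 0.36, skeletal muscle 0.32, tendon 0.29 (1 tested) and brown adipocyte markers -0.016. Csf1r, 1 of the 4 macrophage markers, is also 1 of the 5 genes picked above as most like the members. The part of these cell types in the values of the elastic fibre genes was not tested. In whole tissue a change in the number of cells of a type and a change in RNA per cell cannot be told apart.

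Over all 13 libraries Mfap5 had the highest correlation of the 9 detected members with the fibroblast score, the mean log2 CPM of the 10 markers. After the group means were removed, Pearson's r was 0.83 (permutation p 0.00056, adjusted over the 9 relations computed 0.00504) and rho 0.8 (permutation p 0.00179, adjusted 0.0161) over the 13 libraries. It was 0.63 without the 2 libraries farthest from the median score, iFAXLKO replicate 7 and WT replicate 5, where Emilin1 had 0.64, Fbln1 0.61, Mfap2 0.6 and Fbln5 0.59, so its first place rests on those libraries. For Mfap5 r was 0.98 and 0.83 within the lower and upper of the 2 ranges of library numbers in the labels, where Mfap2 had 0.81 and 0.84. The other 8 relations had r from 0.29 (Fbln2) to 0.64 (Fbln1) and adjusted permutation p-values from 0.0758 to 0.327. For Eln r was 0.47 over all libraries (rho 0.38, permutation p-values 0.11 and 0.202), 0.24 without 2, and -0.29 and 0.8 in the lower and upper ranges, so it was not alike in both.

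**Figure D4:**
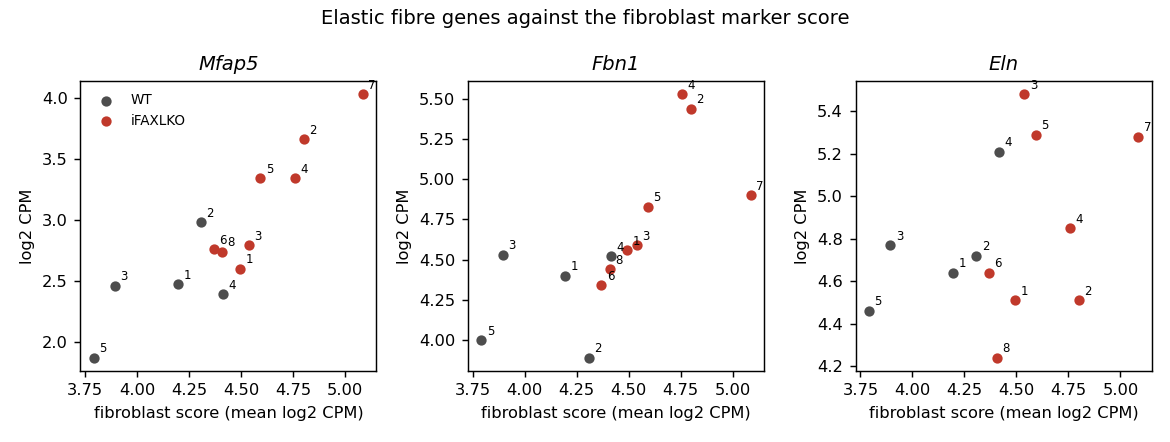
Log2 CPM of Mfap5, Fbn1 and Eln against the fibroblast score (mean log2 CPM of 10 fibroblast markers) in 5 WT and 8 iFAXLKO libraries, numbered by replicate. Mfap5 is higher where the score is higher (r 0.83 with group means subtracted), whereas libraries of like score differ widely in Eln (r 0.47).

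When the fibroblast score entered the fit as a covariate, a choice made with earlier results of these data known, the log2 fold changes moved toward or past 0. Mfap5 then had -0.11 (SE 0.23), Eln -0.23 (SE 0.28), Fbln1 -0.14 (SE 0.28), Fbln5 -0.077 (SE 0.18) and Emilin1 -0.054 (SE 0.22). Fbn1 (0.14, SE 0.29) and Fbln2 (0.19, SE 0.16) stayed positive, and each of the 7 had an adjusted p of 0.999. The score itself differed by 0.51 between the groups, from 3.79 to 4.41 in WT and from 4.37 to 5.09 in the libraries labelled iFAXLKO. The fit can thus hardly tell the score from the group. With the score, 0 of the 7 genes had an unadjusted p under 0.05. Over all genes tested, the share at an unadjusted p under 0.05 was 7.38% without the score and 2.08% with it.

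The labels number the libraries, and the numbers fall into a lower range (4 iFAXLKO, 2 WT) and an upper one (4 iFAXLKO, 3 WT), and whether the ranges mark separate preparations is not stated. Fbn1 had a log2 fold change of 0.93 in the lower range and 0.27 in the upper, Fbln2 0.45 and 0.15, Emilin1 0.54 and 0.28, whereas Mfap5 had 0.42 and 1.06 and Fbln1 0.1 and 0.7. Fbln5 had 0.26 and -0.049 and Eln 0.22 and 0.08. Each of these fits rests on 6 or 7 libraries, and none gave an adjusted p under 0.05 for a member.

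**Figure D5:**
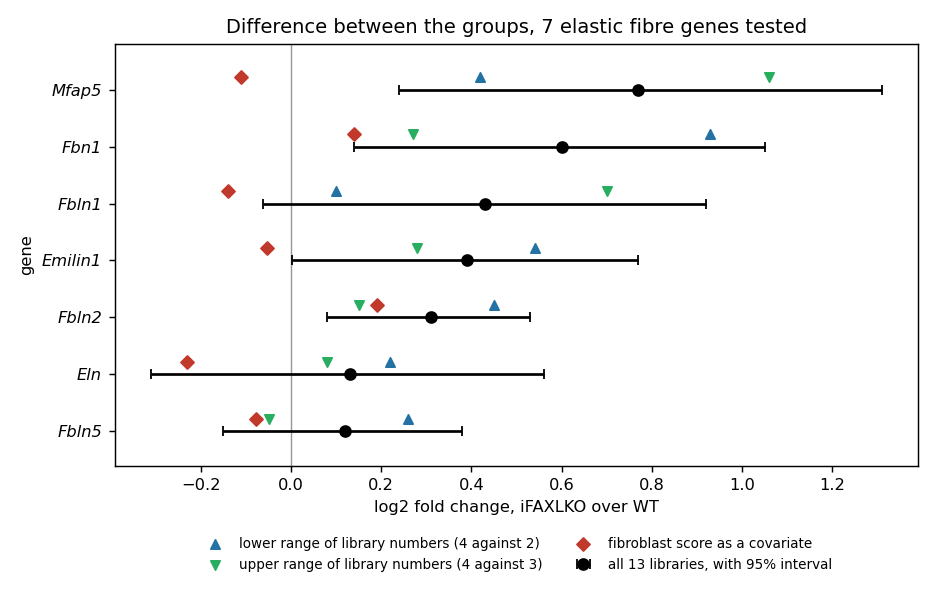
Log2 fold change of iFAXLKO over WT for the 7 elastic fibre genes tested, from all 13 libraries with its 95% interval (black), from the lower (4 against 2) and upper (4 against 3) range of library numbers (blue and green triangles), and with the fibroblast score as a covariate (red). All black points are above 0, from 0.12 to 0.77, and the red points run from -0.23 to 0.19.

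Among 40 other genes of elastic fibre assembly, turnover and binding, 33 were tested, 26 with a higher mean in the libraries labelled iFAXLKO and 7 with a lower one. By edgeR 0 passed the adjusted limit in either direction. At an unadjusted p under 0.05 there were 7, all higher (background 3.84%). In DESeq2 1 passed the adjusted limit, Hmcn2 (adjusted p 0.0491). Over all genes tested, 0.501% passed that limit in DESeq2 and 0.284% did so with a higher mean. The median log2 fold change of the 33 genes was 0.22, and this list too was chosen with earlier results of these data known.

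All 5 relatives of the fibulins had positive values, led by Hmcn2, which encodes a giant matrix protein of the hemicentin family, at 15.3 ± 4.77 CPM in the libraries labelled iFAXLKO and 9.35 ± 1.26 CPM in WT (SD), 0.71 on the log2 scale (SE 0.19, adjusted p 0.365). Fbln7, which encodes fibulin-7, had 0.5 (SE 0.18, adjusted p 0.512). The latent TGF-beta binding proteins, relatives of the fibrillins, had 0 of 4 genes at an unadjusted p under 0.05, with Ltbp2 at 0.31 (adjusted p 0.709) and Ltbp4, which helps to deposit elastin, at 0.23 (adjusted p 0.689).

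The lysyl oxidases, which cross-link elastin and collagen, were divided. In log2 units Loxl3 stood at 0.41 (SE 0.15, adjusted p 0.517) and Loxl2 0.45 (SE 0.22, adjusted p 0.689), whereas Lox had -0.35 (adjusted p 0.724) and Loxl1, the enzyme most tied to elastin, -0.082 (adjusted p 0.958). Of the ADAMTS and ADAMTSL proteins of microfibrils, 4 of 7 were tested. Adamts10 was at 36 ± 2.5 CPM in the libraries labelled iFAXLKO and 30.3 ± 3.26 CPM in WT (SD), 0.25 on the log2 scale (SE 0.077, adjusted p 0.467), and Adamtsl4 had 0.22 (SE 0.19, adjusted p 0.872). The EMILIN relatives Emilin2 and Mmrn2, the latter an endothelial matrix protein, had 0.44 and 0.11 with adjusted p-values of 0.717 and 0.867.

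Of the elastin-degrading proteases, Mmp2, a gelatinase, stood at 0.41 in log2 units (SE 0.13, adjusted p 0.462) and Ctss, which encodes cathepsin S of phagocytes, 0.35 (SE 0.17, adjusted p 0.689). Mmp12, the macrophage elastase, and Elane, the neutrophil elastase, were under the filter with means of no more than 0.35 CPM. Among 9 receptor genes the integrin subunits Itgb3 and Itga8 had 0.67 (SE 0.25, adjusted p 0.537) and 0.49 (SE 0.22, adjusted p 0.636). Itga5 had 0.27 (SE 0.15, adjusted p 0.724), and Itgb1, Itgav and Itgb5 had values between -0.024 and 0.049. Glb1, Neu1 and Ctsa, whose products form the elastin receptor complex, had values between -0.044 and 0.024.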

How the data were processed

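The authors deposited raw read counts per Ensembl gene identifier, 1 file per mouse. The submitters' processing notes name bcl2fastq 2.20, fastp 0.20.0, STAR 2.7.4a, DESeq2 and GRCm38.p6, whereas the methods of the study name Trim Galore, hisat2 and GRCm38. The labels give polyadenylated RNA and the methods depletion of ribosomal RNA. The counting tool and strand setting are not given in the sources used here. Of 42416 identifiers 42263 had a symbol, and GENCODE M21 (GRCm38) gave positions of 42347.

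Genes over 1 CPM in at least 5 libraries (13360) were fitted with edgeR 4.0.16 (TMM factors, robust quasi-likelihood F test, 2-sided) and adjusted by the Benjamini-Hochberg method. CPM are TMM-scaled, with a prior count of 2 for log2 CPM. The SE is the log2 fold change over the square root of F. The exact permutation test compared mean log2 CPM over every assignment of the libraries, 2-sided, with a smallest possible p of 0.000777, and correlations used 100000 random orders. DESeq2 1.42.0 and limma 3.58.1 were alternatives. No pair of libraries within a group agreed within sampling noise (lowest chi-square per degree of freedom 16.56). The fit was tested on simulated data. The 10 members, the other lists and the covariates were chosen with earlier results of these data known. By rule, all members, the 2 genes of each role with the smallest p and the 5 genes most like the members are named; Lox, Loxl1, Mmp12, Elane and the receptors besides Itgb3 and Itga8 were named after their values were seen.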

Additional observations from a re-analysis of the deposited data

Results flagged for a closer look

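In 18 groups of values (9 detected members in each of the 2 groups), 1 library stood apart by Dixon's test. Mfap4 was at 2.29 CPM in iFAXLKO replicate 7, where the next of the 8 libraries was at 0.823 CPM. Chance gives about 1 such value in 20 groups. The same library was also the highest of all 13 for Fbln1, Mfap5 and Emilin1 and for the sums of the fibroblast and macrophage markers, 503 and 66.8 CPM, and it was the lowest for the sum of the brown adipocyte markers, 14800 CPM. Without it, Fbln1 averaged 4.62 CPM, Mfap5 8.41 CPM and Emilin1 7.58 CPM in the libraries labelled iFAXLKO. The part of cell composition in this library was not tested.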

How the results depend on the processing

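No member passed the adjusted limit under any of the 27 alternatives, and 4 members at an unadjusted p under 0.05 became 3 or 4 when 1 library was left out, 2 in the lower range of library numbers alone, 1 in the upper range alone and 0 with the fibroblast score as a covariate. The share of all genes at that limit was 7.38% and became 5.06% to 11.9%, 9%, 4.35% and 2.08% in the same order. That covariate turned the median of the members from 0.39 to -0.077, with Eln at -0.23, Fbln1 at -0.14, Fbln5 at -0.077, Mfap5 at -0.11 and Emilin1 at -0.054. Eln was at -0.04 in limma-voom with quality weights and Fbln5 at -0.049 in the upper range alone, and the causes were not tested. All 7 members stayed positive under the other 11 alternatives that kept all libraries or a range of them and in all 13 that left out 1. Of the other elastic fibre genes, 1 passed in DESeq2 and 0 in edgeR. Over all genes, 17 were called, against 67 in DESeq2, 7 with the replicate block, 8 with the fibroblast score, and 4 and 10 in the ranges of library numbers. Replicate numbers were not taken to pair the mice. The labels tie them to nothing shared, and deviations of same-numbered libraries correlated between 0.18 and 0.42 for 4 numbers but at -0.61 for number 5, with 5 of 10 libraries correlating best with their own number. With the replicate block 0 members passed the adjusted limit, and the lowest adjusted p was 0.194 (Fbln2). In that fit 6 members had an unadjusted p under 0.05 (11.4% of all genes). Replicate numbers 6, 7 and 8 occur only among the libraries labelled iFAXLKO, so the block leaves these libraries without weight in the group difference. Depth limits Fbn2, Mfap2 and Mfap4, which the no-filter fit gave adjusted p-values of 0.993, 0.736 and 0.782.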
